A study of Mus musculus with 6 samples.

Results

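The respiratory chain and ATP synthase of the inner mitochondrial membrane are built from subunits of 2 genomes, and the transcripts of those subunits were followed in the liver of Mdr2 knockout mice given lycorine or vehicle. Members were the protein-coding rows of the expression table whose mouse symbol names a subunit of complex I to V, cytochrome c1 (Cyc1) or cytochrome c (Cycs), with the Ndufaf assembly factors left out. This gave 101 members of 58601 rows, 13 on mitochondrial DNA and 88 on nuclear chromosomes. All 13 mitochondrial and 84 of the 88 nuclear members had a mean of at least 1 TPM (a transcript level scaled to gene length and to a fixed total per library) over the 6 libraries and were tested, among 13854 tested rows.

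The lycorine group was liver of Mdr2 knockout mice that were 8 weeks old when treatment began and received lycorine, an alkaloid of Amaryllidaceae plants, over 2 weeks, with 3 libraries. The vehicle group was liver of Mdr2 knockout mice of the same age given vehicle over the same time, also with 3 libraries. Both groups therefore carry the Mdr2 deletion, and no liver with intact Mdr2 was analysed here. Mdr2 is the older name of Abcb4, the canalicular transporter that moves phosphatidylcholine into bile, and its loss causes cholestatic liver injury. The labels call the mice both Mdr2-/- and Mdr2-HKO and do not spell out the second form, and they give neither sex nor dose. They number the libraries 1 to 3 in each group without saying that each is a separate animal, so any p-value here speaks of the scatter among the libraries, some of which may be technical.

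Complexes I, III and IV pass electrons from NADH to oxygen and pump protons out of the mitochondrial matrix, complex II feeds in electrons from succinate, and complex V (ATP synthase) makes ATP as the protons return. Mitochondrial DNA encodes hydrophobic subunits of complexes I, III, IV and V and is transcribed as long precursors from which the mRNAs are cut, while complex II, cytochrome c and all other subunits are encoded in the nucleus and imported. Hepatocytes hold many mitochondria, and in liver they supply ATP for the synthesis of glucose, urea, bile acids and plasma proteins.

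The libraries differed in makeup, and vehicle 3 stood apart. Protein-coding nuclear genes held 78.1%, 75.4% and 69.5% of all TPM in lycorine 1 to 3, against 71.5%, 63.7% and 51.5% in vehicle 1 to 3. Summed TPM of 10 hepatocyte markers was 39973 to 57464 in lycorine libraries, against 18215 in vehicle 3 and 49528 and 53238 in the other vehicle libraries. Rows with no place in the annotation held 4.10% of TPM in lycorine 3 and 10.8% in vehicle 3, and 1.65% to 2.92% elsewhere. Of 9 tested Kupffer cell markers 9 had a lower mean with lycorine, beside 30.1% of all tested rows. So did 3 of 3 tested neutrophil markers and 5 of 5 tested markers of sinusoidal endothelium. Summed Kupffer marker TPM was 149.4 to 388.5 in lycorine libraries and 218.5 to 526.6 in vehicle libraries, so the groups overlapped. Summed neutrophil marker TPM did not overlap, at 1.76 to 4.19 in lycorine libraries and 6.98 to 27.9 in vehicle libraries. That sum was low and came from 4 markers, and among single tested rows 1.01% did not overlap with lycorine lower. Summed sinusoidal endothelium marker TPM overlapped, at 46.8 to 76.7 with lycorine and 42.5 to 135 with vehicle. A higher mean with lycorine was found for 9 of 10 tested hepatocyte and 6 of 7 tested bile duct markers, beside 69.9% of all tested rows. It was also found for 3 of 6 stellate and fibroblast, 1 of 4 T and NK, and 2 of 5 erythroid markers. The B cell and muscle lists had 1 tested marker each, both higher. In bulk tissue, fewer cells of a type and less RNA per cell cannot be told apart. Abcb4 was present in every library, at 8.32 to 32.2 TPM with lycorine and 10.8 to 43.5 TPM with vehicle, and a gene-level value does not show which part of a transcript remains. The part of these differences in the results on the subunits was not tested.

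No subunit passed the test, and no other row did either. In limma, 0 of 13854 rows (0%) had a Benjamini-Hochberg adjusted p under 0.05, and the smallest adjusted p of a member was 0.832. At an unadjusted limma p under 0.05 there were 386 rows on the higher and 90 on the lower side. The direction nevertheless split by genome of origin. All 13 mitochondrially encoded mRNAs had a lower mean log2(TPM + 1) with lycorine, with a median log2 fold change of -0.66, beside 30.1% of all tested rows with a fold change below 0. Of the 84 tested nuclear members, 81 lay above 0, with a median of 0.44, beside 69.9% of all rows. The median of all tested rows was itself 0.22, and relative to it the medians were -0.88 for mitochondrial and 0.22 for nuclear members. Of the tested protein-coding nuclear genes as a whole, 74.4% lay above 0, with a median of 0.24.

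The mitochondrial direction did not turn under any scaling, but the size on the nuclear side did depend on it. Median-of-ratios scaling, quantile normalization and rescaling to protein-coding nuclear genes moved the median of all rows to 0, 0.07 and 0.01, and under them the nuclear median was 0.15, 0.17 and 0.18 and the mitochondrial median -0.95, -0.40 and -0.93. All 13 mitochondrial members stayed below 0 under each of these scalings, and 72, 72 and 74 of the 84 nuclear members lay above 0. Without vehicle 3 the medians were -0.51 and 0.27, with 13 of 13 below and 75 of 84 above 0, beside a median of all rows of 0.19. With vehicle 3 and lycorine 3 both left out they were -0.72 and 0.32. After rescaling to protein-coding nuclear genes and without vehicle 3, 62 of 84 nuclear members lay above 0, beside 59.5% of all rows. There 13 of 13 mitochondrial members lay below 0, beside 37.9% of all rows.

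**Figure D1:**
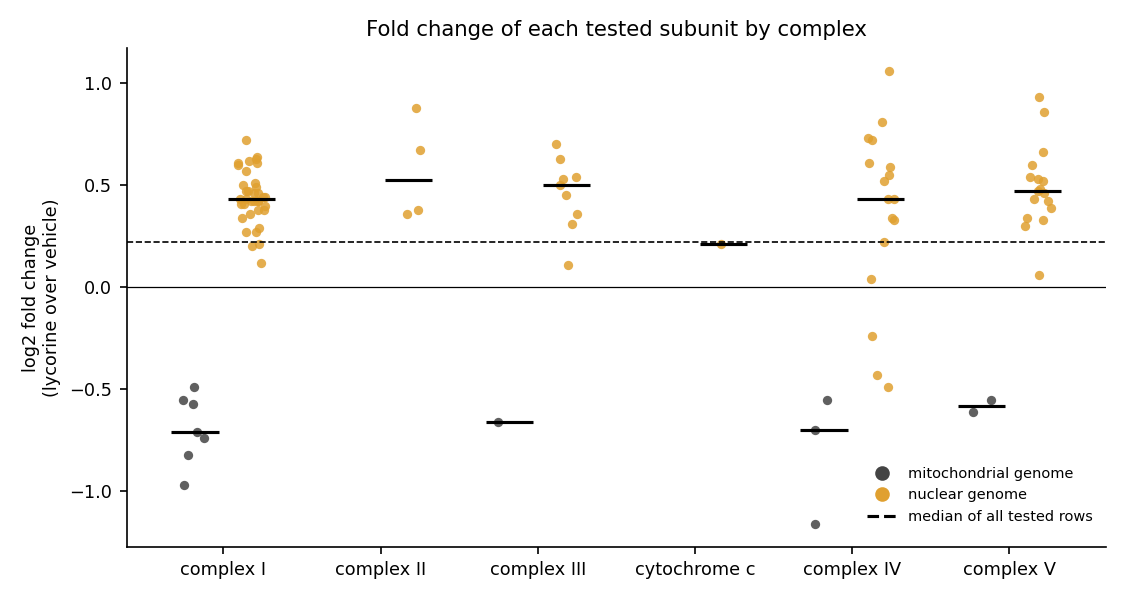
Log2 fold change (lycorine over vehicle, on the log2(TPM + 1) scale) of each of the 97 tested subunits, by complex, with dark points for mitochondrial and light points for nuclear genes. Short lines are the medians of each group, the dashed line is the median of all tested rows (0.22), and every mitochondrial point lies at or below -0.49.

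An unadjusted limma p under 0.05 was reached on the lower side by 6 mitochondrial members (mt-Nd1, mt-Nd2, mt-Nd4, mt-Nd4l, mt-Cytb and mt-Co2), beside 0.650% of all rows, and on the higher side by 3 nuclear members (Cox5a, Cox7b and Atp5f1), beside 2.79% of all rows. The rows of mt-Nd4l and mt-Co2 held only 15.7% to 30.5% and 1.96% to 6.53% of the sum with their near-identical nuclear copies, described below. The libraries of the groups did not overlap, with lycorine lower, for 5 of 13 mitochondrial members, beside 1.01% of all rows. They did not overlap, with lycorine higher, for 33 of 84 nuclear members (39.3%), beside 9.60% of all rows and 11.0% of protein-coding nuclear genes. This count of 33 became 0, 3 and 13 under median-of-ratios scaling, quantile normalization and rescaling to protein-coding nuclear genes, beside 3.31%, 4.02% and 4.48% of all rows. The mitochondrial count of 5 became 1, 1 and 5 under the same scalings, beside 3.52%, 2.82% and 2.01% of all rows. Without vehicle 3, 40 nuclear members did not overlap with lycorine higher, beside 15.3% of all rows. On the lower side there were 1 nuclear and 5 mitochondrial members, beside 1.96%. After rescaling to protein-coding nuclear genes and without vehicle 3, 30 nuclear members did not overlap on the higher side, beside 11.5%. On the lower side there were then 3 nuclear and 5 mitochondrial members, beside 3.78%. On the TPM scale, the counts of nuclear members higher and mitochondrial members lower were 53 and 10 without lycorine 3, beside 18.9% and 1.99%. They were 47 and 10 without vehicle 1, beside 31.3% and 1.79%, and 36 and 5 without vehicle 2, beside 11.3% and 7.58%. Without lycorine 1 they were 41 and 5, beside 12.5% and 2.99%, and without lycorine 2 they were 34 and 5, beside 13.2% and 1.46%. Members share libraries and are not replicates of the treatment.

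The mitochondrial subunits of complex I form its proton-pumping membrane arm. Among them mt-Nd2, at bases 3914 to 4951 of the mitochondrial genome, had the smallest p, with 5979, 6450.2 and 7421 TPM in lycorine 1 to 3, against 9149, 14261 and 12173 TPM in vehicle 1 to 3, a log2 fold change of -0.82 (SE 0.26). mt-Nd1 was at 11435, 13512 and 14547 TPM with lycorine and 16368, 20487 and 21227 TPM with vehicle (-0.55, SE 0.24). In both, all lycorine values lay below all vehicle values. mt-Nd4 had 8681, 10359 and 12703 TPM with lycorine and 14836, 17928 and 18699 TPM with vehicle, also without overlap (-0.71, SE 0.25). mt-Nd6, the one member on the opposite strand, had 2797, 2965 and 3809.8 TPM with lycorine, against 4433, 4597 and 4331 TPM with vehicle (-0.49, SE 0.24). Its groups did not overlap, and its fold change was the smallest of the 13 with the 6 libraries. mt-Nd5, which lies across from the end of mt-Nd6, had 9147, 12943 and 15329 TPM with lycorine and 11667, 18851 and 27121 TPM with vehicle (-0.57, SE 0.37, and -0.28 without vehicle 3), and lycorine 2 and 3 lay above vehicle 1. The sources used here do not say whether reads were counted by strand, so reads from the bases that mt-Nd5 and mt-Nd6 share cannot be told apart.

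The single mitochondrial subunit of complex III, cytochrome b (mt-Cytb), carries the haems that pass electrons across the membrane. It was at 10735, 11011 and 13915 TPM in lycorine libraries, against 16203, 21577 and 18529 TPM in vehicle libraries, with no overlap (-0.66, SE 0.24). In complex IV, mt-Co1 holds the site where oxygen is reduced, and it had 17602, 19921 and 24016 TPM with lycorine and 22981, 41429 and 27636 TPM with vehicle (-0.55, SE 0.29, and -0.31 without vehicle 2). Its groups overlapped in lycorine 3 and vehicle 1. In complex V, mt-Atp8, a small membrane subunit, was at 19843, 16835 and 15755 TPM with lycorine and 15359, 38036 and 28069.7 TPM with vehicle (-0.55, SE 0.35, and -0.26 without vehicle 2). Vehicle 1 lay below all lycorine libraries there, and vehicle 2 and 3 above them. mt-Atp8 spans 204 bases and ends inside mt-Atp6, so reads of the shared bases can be given to either gene.

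**Figure D2:**
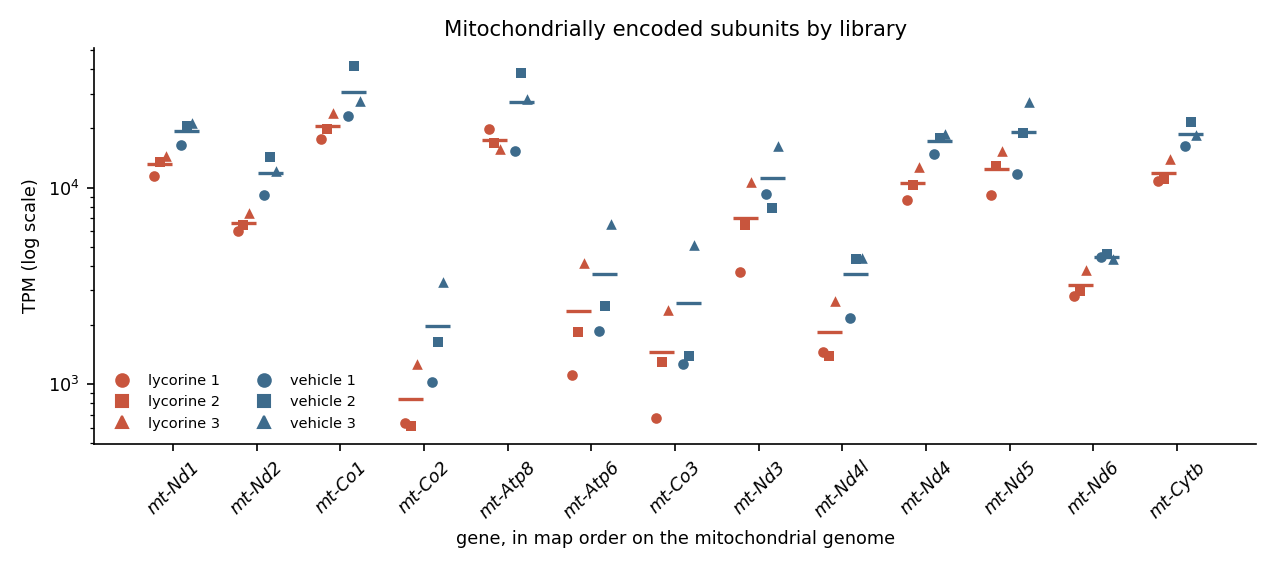
TPM (log scale) of the 13 mitochondrial subunit mRNAs in map order, in the 3 lycorine libraries (left of each pair) and the 3 vehicle libraries, with a line at each group's arithmetic mean. The lycorine mean is the lower one for every gene, and the groups are fully apart for mt-Nd1, mt-Nd2, mt-Nd4, mt-Nd6 and mt-Cytb.

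The other 5 mitochondrial members cannot be read from their own rows alone, because near-identical copies of them in the nucleus of the reference genome held a large part of the signal. Copies of mt-Nd2, mt-Nd4, mt-Nd5 and mt-Co1 were also found, but the own rows of these held 98.4% to 100% of the sum of row and copies. Only GENCODE M21 transcripts were compared, so bases between annotated copies, for instance for a match to mt-Atp8, were not examined. The comparison found 11 copies of 9 mitochondrial members. Of these, 7 lie on the minus strand of chromosome 1 between 24611535 and 24616197 of GRCm38, a run of 4663 bases. All 7 are annotated as unprocessed pseudogenes, and 5 are identical to the mitochondrial gene over their whole length. A short read from such a stretch can be placed on either, and the rule by which the authors' counting placed it is not given in the sources used here. The first 61 bases of mt-Co2, the subunit that takes electrons from cytochrome c, and of its chromosome 1 copy show this, with no base in capitals because none differs.
mt-Co2: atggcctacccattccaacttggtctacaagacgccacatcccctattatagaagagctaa
Gm28661: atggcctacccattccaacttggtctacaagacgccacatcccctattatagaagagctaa
Over all 681 aligned bases the pair had 0 mismatches. The copy of mt-Nd3 differs at 1 of 345 bases, T3C (the mitochondrial base, its position from the first base of the gene, then the base of the copy), in capitals here.
mt-Nd3: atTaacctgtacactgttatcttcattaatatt
Gm28438: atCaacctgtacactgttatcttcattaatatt
On chromosome 2, the copy Gm13340 of mt-Co1 has 37 mismatches in 1545 bases. Bases 24 to 84 hold C54A and A60G, in capitals.
mt-Co1: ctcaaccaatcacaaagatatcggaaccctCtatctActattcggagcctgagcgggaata
Gm13340: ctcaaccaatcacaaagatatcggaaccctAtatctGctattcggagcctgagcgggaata
This copy held 151, 258 and 268 TPM with lycorine and 179, 239 and 446 TPM with vehicle, and mt-Co1 kept 98.4% to 99.4% of the sum of its own row and its copies.

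For mt-Co2, mt-Co3, mt-Atp6 and mt-Nd4l the copy held most of the signal in every library, and mt-Nd3 kept 38.1% to 65.5% of its sum. The mt-Co2 row (bases 7013 to 7696 of the mitochondrial genome) had 636, 616 and 1269 TPM with lycorine and 1021, 1647 and 3300.4 TPM with vehicle, the lowest mean of the 13 in both groups, and the largest fold change with the 6 libraries (-1.16, SE 0.49). Without vehicle 3 its fold change was -0.71, and that of mt-Nd4l -0.80. Its copy Gm28661 had 24508, 30785 and 33449.6 TPM with lycorine and 35460.0, 43292 and 47248 TPM with vehicle. The mt-Co2 row thus held 1.96% to 3.66% of the sum in lycorine libraries and 2.80% to 6.53% in vehicle libraries, and that share differed between libraries. The sum of row and copies was 25144, 31401 and 34719 TPM with lycorine, against 36481, 44939 and 50548 TPM with vehicle, the highest mean of any mitochondrial member in both groups when copies were added. On the sum the groups did not overlap, and the log2 difference was -0.53 in place of -1.16.

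The copy also held most of the sum for mt-Co3, the third mitochondrial subunit of complex IV, and for mt-Atp6, which forms the proton path of ATP synthase. mt-Co3 had 678, 1304 and 2381 TPM with lycorine and 1265, 1387 and 5094 TPM with vehicle in its own row (-0.70, SE 0.65, and -0.05 without vehicle 3 or -1.14 without lycorine 3), and 19038, 24308 and 29961 against 28338, 34928 and 42036 TPM with its copy Gm28437 added. mt-Atp6 had 1108, 1854 and 4142 TPM with lycorine and 1859.7, 2506 and 6562 TPM with vehicle (-0.61, SE 0.61, and -0.08 without vehicle 3 or -1.12 without lycorine 3), and 14380.2, 19666 and 24776 against 17995, 24259 and 42847 TPM with Gm10925 added. The groups overlapped in row and sum of both genes. Own rows held 3.56% to 12.1% of the mt-Co3 sum and 7.71% to 16.7% of the mt-Atp6 sum.

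mt-Nd4l, a small membrane subunit of complex I, had 1455, 1399.9 and 2652 TPM with lycorine and 2169.7, 4309 and 4368 TPM with vehicle (-0.97, SE 0.40), where lycorine 3 overlapped vehicle 1. With its identical copy Gm10222 the values were 9284, 7308 and 9269 TPM with lycorine and 9669, 20673 and 14324 TPM with vehicle, with no overlap and a log2 difference of -0.73. mt-Nd3 had 3714, 6450.4 and 10724 TPM with lycorine and 9296, 7859.8 and 16279 TPM with vehicle (-0.74, SE 0.45, and -0.35 without lycorine 1), and 9754, 11884 and 16589.9 against 15273, 17787 and 24871 TPM with Gm28438 added, both with overlap. The identical copy of mt-Nd4, Gm28439, was listed at 0 in all 6 libraries, although it covers 876 bases of a gene at 8681 to 18699 TPM. With all copies added to their members, 13 of 13 mitochondrial members remained below 0, their median was -0.55, and 7 had groups that did not overlap, beside 1.02% of all rows.

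**Figure D3:**
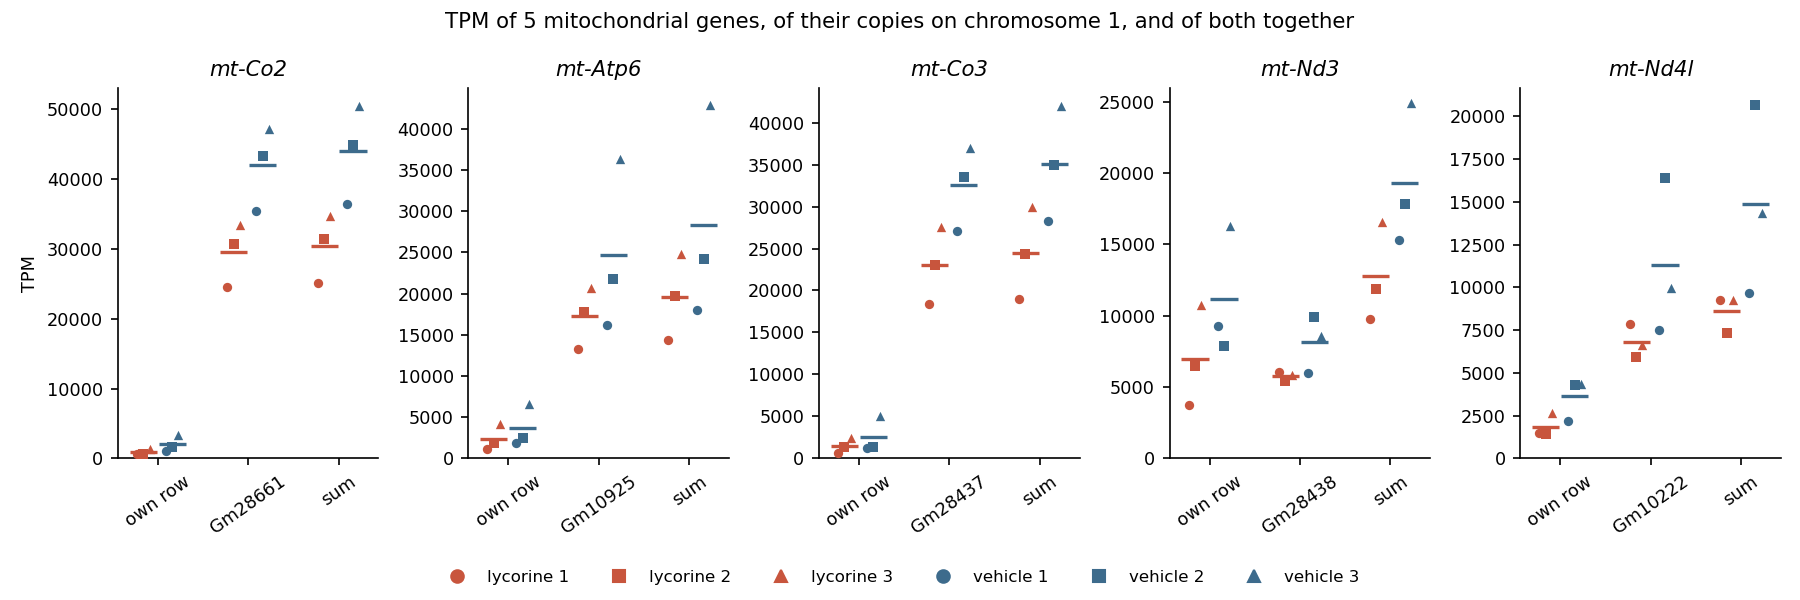
TPM of the rows of 5 mitochondrial genes, of their copies on chromosome 1, and of the sum of the pair (linear scale, a separate axis for each gene), with lycorine libraries left of vehicle libraries and a line at each group's mean. For mt-Co2, mt-Atp6, mt-Co3 and mt-Nd4l the copy holds most of the sum, and the lycorine mean of the sum is the lower one in all 5 genes.

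Summed over members, the mitochondrial mRNAs made up 9.38%, 10.6% and 12.9% of all TPM in lycorine 1 to 3, against 12.7%, 19.5% and 19.3% in vehicle 1 to 3. Lycorine 3 and vehicle 1 were close and in overlap. With nuclear copies added, the shares were 16.4%, 18.9% and 22.3% with lycorine and 21.9%, 32.0% and 33.3% with vehicle. The nuclear members together made up 2.77%, 2.95% and 2.73% of TPM in lycorine libraries, against 2.41%, 2.17% and 1.78% in vehicle libraries, with no overlap. TPM has the same total in every library, so the mitochondrial and nuclear shares are not independent of each other.

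A ratio within each library does not depend on the scaling between libraries. Mitochondrial over nuclear member TPM was 3.39, 3.58 and 4.71 in lycorine 1 to 3, against 5.25, 9.0 and 10.9 in vehicle 1 to 3, means of 3.89 ± 0.715 with lycorine and 8.37 ± 2.86 with vehicle (SD, n = 3 each). The groups did not overlap, and the log2 difference was -1.06. It was -0.84 without vehicle 3, -1.36 without vehicle 1, and -0.99 with copies added. As a share of protein-coding nuclear TPM alone, which leaves the mitochondrial mRNAs out of the total, the nuclear members held 3.55%, 3.92% and 3.93% with lycorine and 3.37%, 3.40% and 3.46% with vehicle, with no overlap and a log2 difference of 0.15. The 2 mitochondrial ribosomal RNAs, cut from the same precursors, summed to 1036, 2275 and 3326 TPM with lycorine and 1937, 2551 and 8080 TPM with vehicle, with overlap.

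**Figure D4:**
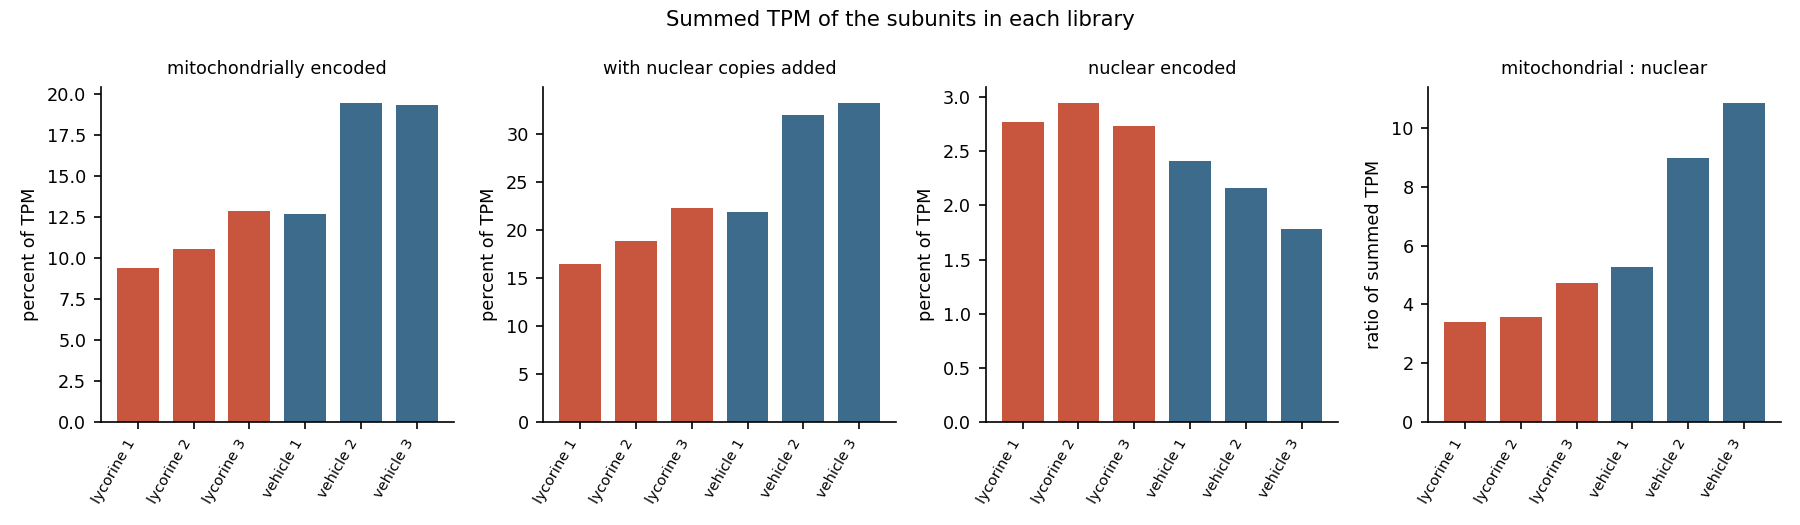
Summed TPM of the subunits in each library, as percent of all TPM for mitochondrial members, for mitochondrial members with their nuclear copies, and for nuclear members, and the ratio of mitochondrial to nuclear member TPM. Bars start at 0 and each bar is 1 library; the ratio is 3.39 to 4.71 in the lycorine libraries and 5.25 to 10.9 in the vehicle libraries.

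Nuclear members had means over the 6 libraries from 1.03 TPM (Cox8b) to 2176 TPM (Uqcrq), with a median of 183.5 TPM, and 60 of the 84 exceeded 100 TPM. They varied more among vehicle than among lycorine libraries, with a median SD on the log2 scale of 0.19 with lycorine and 0.44 with vehicle. Of the 84, 53 had their lowest value in vehicle 3 and 19 in vehicle 2, and 37 had their highest in lycorine 1 and 22 in lycorine 2. In vehicle 3, 71 lay below their own mean over the libraries, 18 of them by over 1 on the log2 scale, and 13 lay above it. The median log2 deviation of nuclear members was 0.26, 0.29 and 0.10 in lycorine 1 to 3 and 0.03, -0.14 and -0.50 in vehicle 1 to 3. All tested rows shifted between libraries as well, with medians of 0.22, 0.02 and 0.01 with lycorine and 0.15, -0.40 and -0.20 with vehicle. Of the mitochondrial members 10 had their lowest value in lycorine 1, and all 13 had their highest in vehicle 2 or vehicle 3.

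**Figure D5:**
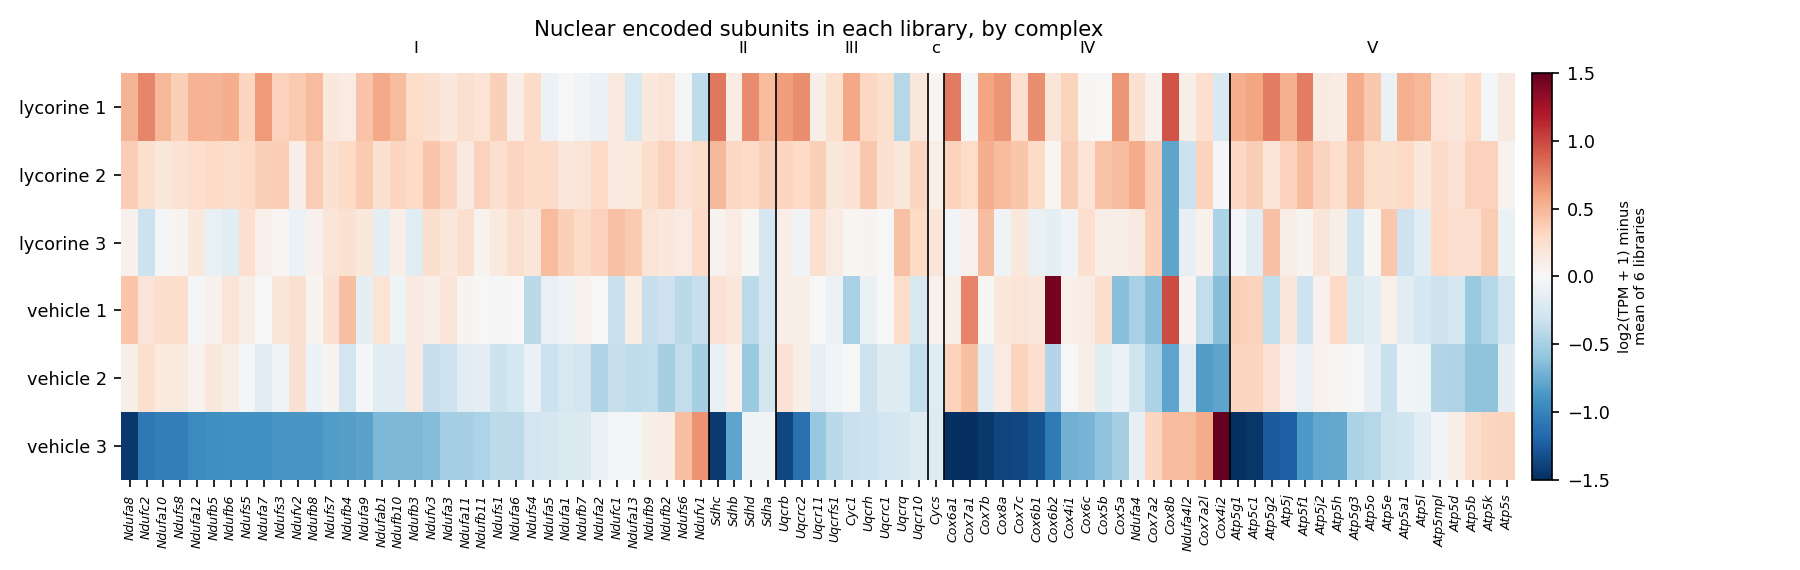
Deviation of the tested nuclear subunits, 1 of them not shown, from their own mean over the 6 libraries (log2(TPM + 1), colour scale cut at 1.5 on each side), with lycorine libraries in the upper rows and vehicle libraries below, grouped by complex and ordered by the value in vehicle 3. Most columns are blue in vehicle 3 and red in lycorine 1 and 2, while Ndufs6, Ndufv1, Cox7a2l and Atp5b are among those above their mean in vehicle 3.

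Complex I had 36 tested nuclear members, all 36 with a fold change above 0 (median 0.43, range 0.12 to 0.72, and median 0.27 without vehicle 3), beside 69.9% of all rows. In 18 of the 36 the groups did not overlap, beside 9.60% of all rows. The 7 core subunits, which carry the flavin and the iron-sulphur clusters from the NADH site to ubiquinone, had a median of 0.38, and the 29 supernumerary subunits, which surround the core, a median of 0.44. Ndufs1, which holds iron-sulphur clusters of the NADH-oxidising arm, was at 30.1, 27.7 and 26.1 TPM with lycorine and 23.1, 18.5 and 17.6 TPM with vehicle (0.49, SE 0.27). Each lycorine library lay above each vehicle library.

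In 5 of the 7 core subunits the groups overlapped. Ndufs3, Ndufs7 and Ndufs8, also of the arm that leads to ubiquinone, had fold changes of 0.50, 0.38 and 0.41, and those of Ndufs3 and Ndufs7 were 0.19 and 0.06 without vehicle 3. Ndufs8 had 217, 196 and 174 TPM with lycorine and 203, 187 and 82.0 TPM with vehicle, and without vehicle 3 its fold change was -0.001. Ndufv2, an iron-sulphur subunit beside the NADH site, had 114, 92.6 and 82.0 TPM with lycorine and 103, 102 and 47.2 TPM with vehicle (0.27), and -0.10 without vehicle 3. Ndufv1, which binds NADH and FMN, was highest in vehicle 3, where most members were low, with 72.7, 114 and 116 TPM with lycorine and 74.3, 66.5 and 151 TPM with vehicle (0.12, the lowest of complex I). Its fold change lay below 0 under all 3 other scalings, and it was -0.02 without vehicle 1 and -0.10 without vehicle 2.

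Among supernumerary subunits Ndufa7 had the highest fold change of complex I with the 6 libraries, 0.72 (SE 0.34, and 0.45 without vehicle 3), with 398, 327 and 269 TPM with lycorine and 253, 226 and 136 TPM with vehicle and no overlap. The others ranged from 0.20 (Ndufa13) to 0.64 (Ndufa9, which binds a nucleotide near the ubiquinone site), and 16 of the 29 did not overlap (55.2%, beside 9.60% of all rows).

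Complex II is the one complex with no mitochondrial subunit, and it also works in the citric acid cycle. Its 4 members all lay above 0, beside 69.9% of all rows, with a median of 0.53. The membrane anchor Sdhd was at 44.8, 33.3 and 27.3 TPM with lycorine and 20.4, 18.1 and 25.8 TPM with vehicle (0.67, SE 0.31), with no overlap. The other anchor, Sdhc, had 106, 85.8 and 63.2 TPM with lycorine and 70.8, 56.5 and 22.0 TPM with vehicle (0.88, SE 0.47, and 0.39 without vehicle 3), where lycorine 3 lay below vehicle 1. Sdha, the flavoprotein that oxidises succinate, had 23.6, 21.7 and 14.0 TPM with lycorine and 14.0, 13.7 and 16.1 TPM with vehicle (0.38). The iron-sulphur subunit Sdhb had 272, 314 and 275 TPM with lycorine and 284, 266 and 145 TPM with vehicle (0.36, and 0.06 without vehicle 3). Both overlapped between the groups, and per length Sdhb exceeded the other 3 members in every library.

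Complex III had 9 nuclear members, 9 above 0, beside 69.9% of all rows (median 0.50, and 0.25 without vehicle 3). Of the 9 members 6 did not overlap (66.7%, beside 9.60% of all rows). Cyc1, the cytochrome that hands electrons to cytochrome c, was at 146, 114 and 99.0 TPM with lycorine and 69.6, 97.4 and 77.3 TPM with vehicle (0.54, SE 0.29), and the Rieske iron-sulphur protein Uqcrfs1 at 108.6, 103.6 and 99.96 TPM with lycorine and 86.0, 89.5 and 69.1 TPM with vehicle (0.36, SE 0.26). Neither overlapped. The small subunit Uqcrb had a fold change of 0.70 (SE 0.46), the highest of the complex with the 6 libraries but 0.20 without vehicle 3, with 358, 290.1 and 249 TPM with lycorine and 248, 268 and 89.3 TPM with vehicle, where vehicle 3 lay far below the other libraries. Uqcrq, another small subunit and the most abundant nuclear member, had 1577, 2368 and 2884 TPM with lycorine and 2579, 1856 and 1791 TPM with vehicle. Its fold change of 0.11 was the lowest of the complex and lay below 0 under median-of-ratios scaling (-0.18), after rescaling (-0.16) and without lycorine 3 (-0.08). Cycs, the soluble carrier that also triggers apoptosis once released, had 22.0, 23.3 and 24.6 TPM with lycorine and 22.6, 18.9 and 18.8 TPM with vehicle (0.21, SE 0.26). Its row held 26.4% to 58.1% of the sum with its copies, and on the sum the log2 difference was 0.42, with overlap.

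Complex IV had 17 tested nuclear members, of which 14 lay above 0, beside 69.9% of all rows (median 0.43, and 0.14 without vehicle 3). Of the 17 members 3 did not overlap, with lycorine higher (17.6%, beside 9.60% of all rows). Cox5a, a matrix-side subunit on chromosome 9 from 57521274 to 57532426, had the smallest p of all nuclear members (limma unadjusted p 0.0291, adjusted p 0.832), with 200.4, 174 and 135 TPM with lycorine and 81.5, 119 and 89.3 TPM with vehicle, means of 169.7 ± 33.0 TPM with lycorine and 96.7 ± 19.9 TPM with vehicle (SD, 3 libraries each) and a fold change of 0.81 (SE 0.30). Cox7b, a small transmembrane subunit on chromosome X from 106015700 to 106022450, had 223, 216 and 204 TPM with lycorine and 149, 133 and 53.6 TPM with vehicle, and its fold change of 1.06 (SE 0.42) was the highest of all members with the 6 libraries. Without vehicle 3 it was 0.60, below several members, among them Atp5b (0.88), Cox7a2 (0.81), Ndufa4 (0.70) and Atp5f1 (0.64). The third without overlap was Ndufa4, named for complex I but found in complex IV, at 902, 1136 and 844 TPM with lycorine and 548, 628 and 706 TPM with vehicle (0.61, SE 0.26). Cox5b, which binds zinc on the matrix side, overlapped between the groups, with 613, 828 and 657 TPM with lycorine and 739, 547 and 406 TPM with vehicle (0.34, and 0.13 without vehicle 3).

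Several complex IV subunits have a form common to most tissues or typical of liver and a second form of other tissues. In each of these pairs the first form was the more abundant one in every library. Cox4i1 had 1161, 1192 and 891 TPM with lycorine and 971, 922 and 562 TPM with vehicle (0.43), and Cox6a1 1109, 823 and 627 TPM with lycorine and 688, 820.3 and 226 TPM with vehicle (0.72). Vehicle 3 was the lowest library of both, and without it the fold changes were 0.18 for Cox4i1 and 0.14 for Cox6a1. Cox6b1 and Cox8a were also lowest in vehicle 3. Cox6b1 had 855, 647 and 494 TPM with lycorine and 593, 627 and 213 TPM with vehicle (0.59, and 0.09 without vehicle 3). Cox8a had 589.9, 517 and 359 TPM with lycorine and 413, 406 and 142 TPM with vehicle (0.73, and 0.22 without vehicle 3). Cox7a2 went the other way in that library, with 242, 299 and 297 TPM with lycorine and 149, 167 and 289 TPM with vehicle (0.52, and 0.81 without vehicle 3).

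The second forms had low levels. Cox4i2, the form of lung and of low oxygen, had 1.88, 2.33 and 1.42 TPM with lycorine and 1.17, 0.950 and 14.1 TPM with vehicle. Its fold change of -0.49, the lowest of the nuclear members, rests on vehicle 3 and was 0.47 without it. Ndufa4l2, the hypoxia-induced relative of Ndufa4, had 5.62, 3.98 and 4.68 TPM with lycorine and 5.38, 4.54 and 7.64 TPM with vehicle (-0.24). The heart and muscle forms Cox7a1 and Cox8b had at most 5.25 and 2.35 TPM with lycorine and 7.57 and 2.42 TPM with vehicle (0.22 and -0.43), and Cox8b was listed at 0 in 3 libraries. The testis form Cox6b2 had 4.75, 4.19 and 3.56 TPM with lycorine and 12.7, 2.73 and 1.43 TPM with vehicle (0.04), and without vehicle 3 the fold changes of Cox7a1 and Cox6b2 were both -0.48. The muscle form Cox6a2 averaged 0.413 TPM with lycorine and 0.380 TPM with vehicle and was not tested, and the same holds for Cox7b2, Cox8c and a second row named Atp5o, which were listed at 0 in all libraries. Summed TPM of 5 muscle markers was 1.44 to 3.05 with lycorine and 0.60 to 1.02 with vehicle, with Myh4 at 0.

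Complex V had 17 tested nuclear members, all 17 above 0, beside 69.9% of all rows (median 0.47, and 0.33 without vehicle 3). Of the 17 members 5 did not overlap (29.4%, beside 9.60% of all rows). The catalytic beta subunit Atp5b had 1149.6, 1188 and 1120.4 TPM with lycorine and 636, 617 and 1127 TPM with vehicle (0.60, SE 0.31). Vehicle 1 and 2 lay below all lycorine libraries and vehicle 3 among them. The alpha subunit Atp5a1 had 159.6, 135 and 88.3 TPM with lycorine and 97.7, 107 and 89.4 TPM with vehicle (0.34). Atp5c1, the gamma shaft that turns inside the head, was instead lowest in vehicle 3, with 239, 205 and 142 TPM with lycorine and 202, 199 and 57.0 TPM with vehicle (0.53, and -0.07 without vehicle 3).

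In the peripheral stalk, Atp5f1, subunit b, on chromosome 3 from 105942698 to 105960099, had 113, 91.3 and 67.9 TPM with lycorine and 52.9, 61.0 and 35.7 TPM with vehicle, with no overlap (0.86, SE 0.34, limma unadjusted p 0.0364). Atp5o, the OSCP subunit that holds the head, had 372, 339 and 286 TPM with lycorine and 251, 257 and 207 TPM with vehicle, also with no overlap (0.47, SE 0.26). The ring of subunit c is encoded by 3 genes for the same mature protein. Atp5g1 had 621, 527 and 416 TPM with lycorine and 547, 534 and 151 TPM with vehicle (0.54, and -0.07 without vehicle 3). Atp5g3 had 520.2, 475 and 287 TPM with lycorine and 302, 352 and 254 TPM with vehicle (0.46). Atp5g2 had 7.70, 4.80 and 5.92 TPM with lycorine and 2.94, 4.90 and 1.15 TPM with vehicle (0.93, the highest of the complex with the 6 libraries, and 0.55 without vehicle 3), but its row held 1.76% to 5.18% of the sum with its copies, and on the sum the log2 difference was 0.46. Atp5s, the distant member called factor B, had 5.05, 4.72 and 4.12 TPM with lycorine and 3.54, 3.97 and 5.92 TPM with vehicle (0.06), the lowest of the complex and below 0 under all 3 other scalings.

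Near-identical copies were also found for 24 nuclear members, 48 copies in all, but only 13 copies of 9 members averaged at least 1 TPM. Beside Atp5g2 and Cycs, own rows held 10.5% to 25.4% of the sum for Ndufb4, 20.5% to 29.7% for Cox7c, 35.3% to 48.3% for Atp5l, 42.9% to 47.0% for Ndufs5, 51.4% to 78.5% for Cox7a2l and 78.8% to 88.3% for Ndufa12. A copy of Ndufab1 was listed above 0 in lycorine 3 alone, where the row of Ndufab1 held 91.95% of the sum. Values of these rows are uncertain to that extent. With copies added to all members, 81 of 84 nuclear members lay above 0, the median was 0.45, and 33 did not overlap, beside 9.61% of all rows.

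Promoters were read because many respiratory genes are known targets of nuclear respiratory factor 1 (NRF1), of the ETS factor GABP (nuclear respiratory factor 2) and of YY1. RefSeq promoters of GRCm38.p6, from 250 bases before to 50 bases after each start, were found for 68 member genes, with 73 promoters. NRF1 letters (GCGCATGC, either strand) stood in 15.1% of the 73, against 2.71% of 32851 promoters in all. The ETS letters CCGGAAG stood in 21.9%, against 8.86%, and the YY1 letters AAGATGGC in 12.3%, against 2.75%. The letters TATAAA were in 11.0% of member promoters and 13.6% of all, and the GC box GGGCGG in 39.7% and 35.7%. The tested members with any of the NRF1, ETS or YY1 letters numbered 30 and had a median fold change of 0.45, and the 37 members with none had 0.46 (1 matched member is not included here). The promoters of Uqcr11, a small subunit of complex III at chr10:80406772-80407071 on the minus strand, and of Cox6a1 at chr5:115348909-115349208 on the minus strand show NRF1 and ETS letters in capitals, where the NRF1 letters of Cox6a1 overlap on the 2 strands.
Uqcr11: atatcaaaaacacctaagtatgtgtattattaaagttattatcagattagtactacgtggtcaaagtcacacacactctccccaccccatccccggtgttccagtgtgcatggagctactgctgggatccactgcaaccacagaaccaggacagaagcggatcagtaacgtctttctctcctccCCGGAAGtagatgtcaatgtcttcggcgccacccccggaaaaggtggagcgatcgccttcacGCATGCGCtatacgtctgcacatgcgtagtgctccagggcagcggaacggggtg
Cox6a1: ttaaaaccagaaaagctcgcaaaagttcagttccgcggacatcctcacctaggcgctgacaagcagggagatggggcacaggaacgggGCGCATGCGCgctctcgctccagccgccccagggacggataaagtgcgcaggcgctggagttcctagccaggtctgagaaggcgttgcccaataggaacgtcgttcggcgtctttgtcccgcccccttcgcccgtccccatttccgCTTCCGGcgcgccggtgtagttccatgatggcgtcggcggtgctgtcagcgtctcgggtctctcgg
Uqcr11 had 1068, 1287 and 1193 TPM with lycorine and 1015, 927 and 681 TPM with vehicle (0.45, no overlap), and the values of Cox6a1, given above, overlapped.

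Genes that serve the respiratory chain were read from lists, in which 0 genes had an adjusted p under 0.05. Counts above 0 in these lists stand beside 69.9% of all tested rows and 74.4% of tested protein-coding nuclear genes. Of the 14 tested genes for mitochondrial transcription and genome maintenance 12 lay above 0, with a median of 0.25, close to the 0.22 of all rows, and 0 were free of overlap. Polrmt, the mitochondrial RNA polymerase, had 26.4, 19.7 and 43.6 TPM with lycorine and 23.8, 23.2 and 23.5 TPM with vehicle (0.26), and Tfam, which packages mitochondrial DNA and starts its transcription, 2.92, 2.35 and 1.63 TPM with lycorine and 2.45, 1.94 and 3.47 TPM with vehicle (-0.13). Both overlapped. Of 18 genes for mitochondrial RNA processing and stability 15 lay above 0 (median 0.35), and 4 did not overlap (22.2%, beside 9.60% of all rows). Of 10 nuclear regulators 6 lay above 0 (median 0.17). Nrf1 had 2.17, 1.37 and 0.770 TPM with lycorine and 2.89, 1.23 and 9.02 TPM with vehicle (-0.90), high in vehicle 3. Esrra, the oestrogen-related receptor that drives respiratory genes, had 23.4, 23.7 and 26.6 TPM with lycorine and 24.3, 14.0 and 13.9 TPM with vehicle (0.52). The groups overlapped for both genes, and for Esrra vehicle 1 lay above lycorine 1 and lycorine 2.

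Complex I assembly factors lay above 0 in 14 of 15 cases (93.3%, beside 69.9% of all rows), with a median of 0.37. The groups did not overlap in 4 (26.7%, beside 9.60% of all rows). Timmdc1, which builds the membrane arm, had 12.3, 12.5 and 11.5 TPM with lycorine and 7.74, 5.93 and 5.80 TPM with vehicle (0.81, SE 0.26). Ndufaf3, an early assembly factor, had 18.2, 14.3 and 17.0 TPM with lycorine and 12.3, 9.06 and 3.15 TPM with vehicle (1.09, SE 0.45). The fold change of Ndufaf3 was the highest of this list, and its lowest value was in vehicle 3. Assembly factors of complexes II to V lay above 0 in 28 of 33 cases (median 0.33), citric acid cycle and pyruvate dehydrogenase genes in 17 of 17 (median 0.39), and carriers, import and pore genes in 18 of 18 (median 0.43). Slc25a11, which exchanges malate and 2-oxoglutarate, had 34.5, 31.3 and 31.6 TPM with lycorine and 22.4, 18.7 and 14.4 TPM with vehicle (0.80, SE 0.28). Other donors of electrons to ubiquinone and genes of its synthesis lay above 0 in 14 of 18 cases (median 0.41), and mitochondrial chaperones and proteases in 11 of 13 (median 0.31). In these 5 lists the shares above 0 were 84.8%, 100%, 100%, 77.8% and 84.6%, in the order given. Of all rows 69.9% lay above 0, and of protein-coding nuclear genes 74.4%. The groups did not overlap, with lycorine higher, for 6 of 33, 5 of 17, 4 of 18, 3 of 18 and 3 of 13 genes of the 5 lists, again beside 9.60% of all rows.

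Ribosomal proteins gave medians close to that of the nuclear subunits, which was 0.44. Proteins of the mitochondrial ribosome, which translates the 13 mitochondrial mRNAs, lay above 0 in 77 of 78 cases, with a median of 0.42 and no overlap in 20 (25.6%). Proteins of the cytosolic ribosome lay above 0 in 82 of 85 cases, with a median of 0.39 and no overlap in 9 (10.6%), beside 9.60% of all rows. Of all rows 69.9% lay above 0, and of protein-coding nuclear genes 74.4%. The difference between these lists and the subunits was not tested.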

How the data were processed

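Liver RNA of 3 lycorine and 3 vehicle libraries was read from 1 table of TPM values per gene. The authors deposited it under a name that speaks of FPKM, but each column sums to 1000000, so the deposited values are TPM. Vehicle columns carry only genotype and number and were assigned to vehicle because the other columns name the drug. Neither aligner nor counter is given in the sources at hand, TPM keeps no depth, and GRCm38 and mm10 are the builds in the submitters' processing notes. Names and coordinates came from GENCODE M21.

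Rows averaging 1 TPM or more were tested on log2(TPM + 1) with limma 3.58.1 (R 4.3.3, variance trend, two-sided, Benjamini-Hochberg over all tested rows, threshold 0.05), so fold changes understate those of low genes. Near-identical copies were transcripts of other genes with at least 95% identity over 80% of the shorter transcript and 150 bases (blastn 2.17.0), a step added after the data were seen. Named members were all mitochondrial ones, core subunits, isoform pairs, the extremes of each complex and the 3 nuclear members with the smallest p on each side. One of these is counted but not reported by name here. Genes of the supporting lists, Ndufa9, Ndufa13 and Uqcr11 were named after their values were seen. Members, complexes and lists were chosen with earlier results of these data known. The fit was run on simulated data with independent rows and the same spread in both groups. Its behaviour with correlated rows or unequal spread was therefore not tested.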

Additional observations from a re-analysis of the deposited data

How the results depend on the processing

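No member had an adjusted p under 0.05 in any of the 18 alternative fits, and 13 of 13 mitochondrial members lay below 0 in each of them. Over all rows, limma called 1 row with array quality weights, 1 with 0.1 as the pseudocount, and 0 to 2 when 1 library was left out (2 without vehicle 2, 1 without lycorine 2). The nuclear median log2 fold change was 0.15 with median-of-ratios scaling, 0.17 with quantile normalization and 0.18 after rescaling to protein-coding nuclear genes; leaving out 1 library gave 0.27 to 0.55, and -0.89 to -0.46 for the mitochondrial median and -1.36 to -0.84 for the log2 difference of the ratio. A fit with the replicate block gave 0 calls and medians of -0.66 and 0.44. The numbers were not taken as pairs, because the labels do not say that a number marks a shared litter, cage or day. Deviations of same-numbered libraries correlated at 0.31, 0.05 and 0.29 across genes, and vehicle 2 correlated best with lycorine 1 (0.21). With 3 libraries per group these correlations cannot show whether libraries were paired.

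Some single fold changes reversed. With median-of-ratios scaling they were -0.02 for Ndufv2, -0.17 for Ndufv1, -0.16 for Cox6b2, -0.07 for Cycs, -0.19 for Atp5s and -0.18 for Uqcrq. With quantile normalization they were -0.04 for Ndufv2, -0.19 for Ndufv1, -0.10 for Cox6b2, -0.01 for Cycs and -0.05 for Atp5s, and after rescaling -0.15 for Ndufv1, -0.14 for Cox6b2, -0.05 for Cycs, -0.17 for Atp5s and -0.16 for Uqcrq. Cox6b2 was -0.07 with a pseudocount of 5, and Cox4i2 0.24 with array quality weights. With vehicle 3 and lycorine 3 left out, Cox4i2 was 0.59, Cox6b2 -0.39, Cox7a1 -0.47 and Uqcrq -0.18. Leaving out 1 library gave -0.48 to 0.77 for Cox6b2, -0.08 to 0.35 for Uqcrq, -0.10 to 0.48 for Ndufv1, -0.06 to 0.24 for Atp5s, -0.07 to 0.86 for Atp5g1, -1.0 to 0.47 for Cox4i2, -0.10 to 0.45 for Ndufv2, -0.07 to 0.83 for Atp5c1, -0.001 to 0.65 for Ndufs8 and -0.48 to 0.64 for Cox7a1. The cause was not tested. TPM keeps no depth, so no counting error is given.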
